A study of Mus musculus with 18 samples.

Results

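The 6 arrays described here, of 18 in the series, compared mIMCD-3 cells treated with AGN193109, an antagonist of all retinoic acid receptors (RARs), with cells that received the vehicle of the same experiment. mIMCD-3 is a cell line of the mouse inner medullary collecting duct (CD), the last segment of the kidney tubule, and every sample came from this 1 line. The 3 AGN193109 samples were treated with 1 µM of the compound for 24 h, and the 3 vehicle samples with 0.1% ethanol and 0.1% DMSO for the same time. The sample labels give no solvent content for the AGN193109 samples. A further group of 3 arrays from the same experiment received 1 µM AGN193109 with 0.2 µM all-trans retinoic acid (tRA), and a separate experiment compared 25 µM DEAB, an inhibitor of tRA synthesis, with its own vehicle over 24 h. The line was routinely grown with fetal calf serum, and it stands for the cells of the duct only as far as 1 cultured line does. The 6 members were chosen by their titles and numbered short names, and an AGN193109 array and a vehicle array with the same number came from the same of 3 independent experiments. The platform, the Mouse Gene 1.0 ST array of Affymetrix, reads each gene with probes along its transcripts and gives 1 log2 level per transcript cluster, a set of probes that as a rule stands for 1 gene. Medians of the 9 arrays lay between 7.23 and 7.33, and the number of arrays limits the precision of each value. A log2 difference of 1 is a 2-fold difference.

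Retinoic acid is made from vitamin A in steps, first to retinaldehyde and then to tRA by retinaldehyde dehydrogenases. tRA binds RARs, which sit as dimers with retinoid X receptors on DNA elements (RAREs) near their target genes, and ligand binding exchanges corepressors for coactivators. An antagonist such as AGN193109 occupies the receptor without activating it. In the kidney, retinoid signaling is known for its part in branching of the ureteric bud, from which the CD forms.

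More transcripts were called lower with AGN193109 than higher, and the falls were deeper. The lowered ones included a chemokine (Ppbp), an enzyme that returns retinaldehyde to retinol (Dhrs3), a cornified envelope protein (Sprr1a) and a membrane peptidase (Cpm). Adhesion genes (Itga2 and Tns1), a mucin (Muc20) and defence genes (Lcn2 and Lbp) fell too. The raised ones included the prostaglandin genes Ptgs2 and Ptger4, the annexin Anxa8 and 3 genes of an ERK feedback and immediate early list, which also held 3 falls. All called rises but that of Tcim were of less than 2-fold. Of 23410 clusters with a gene symbol, 107 (0.457%) were called at an adjusted p under 0.05 in limma with replicate number as a block, of which 87 fell (0.372%) and 20 rose (0.0854%). The falls had a median log2 difference of -0.77 and the rises of 0.54, whereas the median over all tested clusters was 0.02. By at least 2-fold, 23 clusters fell and 1 rose. Tns1 alone supplied 5 of these 23, and the called falls with 1 symbol stood for 80 genes. At an unadjusted p under 0.05 the split ran the other way, with 666 clusters lower and 970 higher.

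Most called groups did not overlap, although the clusters were selected on these same arrays, so that this is a description and no further support. In 78 of the 87 lowered clusters every AGN193109 array lay below every vehicle array, as it did in 2.36% of all clusters, and in 15 of the 20 raised clusters every AGN193109 array lay above every vehicle array, as it did in 3.66% of all. All 3 pairs moved the same way in each of the 107, against 9.09% of all clusters that were lower in all 3 pairs and 15% that were higher. Against the spread between replicates without the pairing far fewer passed, since without the block 16 clusters were called (0.0683%), 15 lower (0.0641%) and 1 higher (0.00427%), all of them among the 107. Falls not called without the block included Dhrs3 (adjusted p = 0.12), Sprr1a (0.062), Upk3b (0.62) and Tgm2 (0.67), and also Muc20, P2ry1 and Psca. The p-values with the block measure how much the group differences varied over 3 independent experiments in 1 line, after the level of each experiment was taken out. That spread was estimated over 9 arrays, those with AGN193109+tRA among them. An exact permutation test of 3 arrays against 3, without the pairing, could not give a two-sided p below 0.1. Of all called clusters, 31 of 87 falls kept their call whichever single array of the 9 was left out, and 1 of 20 rises did, that of Tcim. With all arrays of 1 replicate number left out, 4 falls kept their call each time, which were Ppbp, Cpm, Plekhs1 and the brightest cluster of Tns1, and no rise did. Tcim lost it in 2 of these 3 fits (adjusted p up to 0.15), and 64 falls and 19 rises lost it in all 3. A cell that makes less of a transcript and a smaller number of cells that make it cannot be told apart in RNA of a whole dish.

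**Figure D1:**
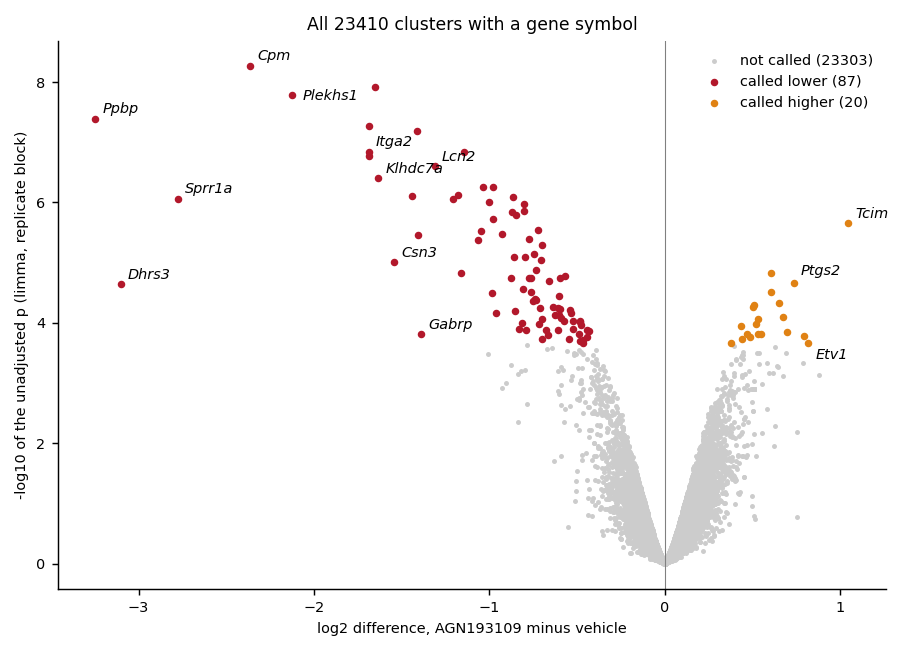
Each point is 1 of 23410 transcript clusters, with the log2 difference of AGN193109 minus vehicle on the x axis and -log10 of the unadjusted limma p on the y axis. The 87 called falls reach -3.25 (Ppbp), while the 20 called rises end at 1.05 (Tcim).

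Among chemokines, cytokines and genes of innate defence, 4 of 41 measured members fell and none rose. The gene lists used here were drawn up with earlier results of these data known, so that their counts describe and do not test. Of all clusters tested, 0.372% fell and 0.0854% rose, and each list count here and below is to be read beside these shares. Ppbp, the precursor of the neutrophil-attracting chemokine CXCL7, fell most of all tested clusters. It stood at 7.44, 7.03 and 7.78 on the AGN193109 arrays, against 10.41, 10.68 and 10.91 on the vehicle arrays. The groups lay more than 2 log2 units apart, and the difference was -3.25 (SE 0.16, adjusted p = 2.4e-04), a 9.49-fold suppression. Lcn2 (lipocalin 2), which withholds iron from bacteria and marks tubular injury, had 11.92, 11.73 and 12.04 with AGN193109 and 13.16, 13.04 and 13.43 with vehicle. Its groups did not overlap either, with a difference of -1.31 (SE 0.08, adjusted p = 5.9e-04). Il34, a ligand of the CSF1 receptor, had a difference of -0.72 (SE 0.06), and Lbp, which binds bacterial lipopolysaccharide, one of -0.77 (SE 0.09). Lbp varied between experiments more than between treatments, from 8.53 in replicate 2 to 10.91 in replicate 3 with AGN193109 and from 9.53 to 11.62 in the same replicates with vehicle, and its groups overlapped. Its call was lost without vehicle replicate 1 or vehicle replicate 3 (adjusted p up to 0.078). Cxcl10 (difference -0.49, adjusted p = 0.16) and Cxcl2 (0.38, adjusted p = 0.11) did not pass the test. The median of the 41 was -0.04.

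Because RARs bind direct repeats of a 6-base half-site, the promoters of the called genes were searched for them. The first half-site was AGGTCA, another was AGTTCA, a further one was GGGTCA and the last one was GGTTCA, as repeats with 1, 2 or 5 bases between them, on both strands, in the 250 bases before and 50 bases after each start site in the RefSeq table of GRCm38.p6. Of 100 called genes with 1 symbol, 64 had an entry, with 82 promoters, and 2 of these held a repeat. They belong to Ppbp and to Tinagl1, a secreted matrix protein related to tubulointerstitial nephritis antigen that fell by 0.61 (SE 0.08, adjusted p = 0.021) and lost its call in 5 of the 9 fits without 1 array. Both promoters are printed because they hold the matches, with the repeat in capitals.
Ppbp: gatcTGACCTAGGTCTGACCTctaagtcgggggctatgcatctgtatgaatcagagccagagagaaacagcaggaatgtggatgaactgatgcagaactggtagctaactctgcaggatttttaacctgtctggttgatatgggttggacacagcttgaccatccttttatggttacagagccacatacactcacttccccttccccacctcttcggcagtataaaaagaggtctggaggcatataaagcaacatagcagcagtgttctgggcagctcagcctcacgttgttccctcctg
Tinagl1: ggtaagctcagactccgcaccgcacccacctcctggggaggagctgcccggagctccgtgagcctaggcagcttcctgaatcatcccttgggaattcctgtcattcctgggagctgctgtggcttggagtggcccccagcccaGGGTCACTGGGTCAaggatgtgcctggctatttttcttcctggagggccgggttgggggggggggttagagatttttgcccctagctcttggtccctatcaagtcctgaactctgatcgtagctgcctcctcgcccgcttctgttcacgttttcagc
The Ppbp sequence is chr5:90768268-90768567 on the plus strand. Read on the opposite strand, its repeat is AGGTCAGACCTAGGTCA, with 5 bases between the half-sites, and it covers the bases 246 to 230 before the start site. The Tinagl1 sequence is chr4:130175073-130175372 on the minus strand, and its repeat has 2 bases between the half-sites. In the whole table, 0.0974% of 32851 promoters held a repeat with 5 bases between the half-sites, 0.268% one with 2 and 0.222% one with 1. A match in letters is no measurement of binding.

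Of 33 measured genes for retinoid transport, metabolism and reception, 2 fell. Dhrs3, the reductase that turns retinaldehyde back into retinol, had 6.94, 7.07 and 7.24 with AGN193109, against 10.68, 8.97 and 10.91 with vehicle. The AGN193109 arrays were close together, whereas vehicle replicate 2 was lower than the other vehicle arrays. The difference was -3.10 (SE 0.36, adjusted p = 0.011), and the call was lost without AGN193109 replicate 3, vehicle replicate 1 or vehicle replicate 3, with adjusted p up to 0.10 and log2 differences between -3.61 and -2.71 over the arrays left out. Stra6, the membrane receptor for retinol-binding protein, fell by 0.48 (SE 0.07, adjusted p = 0.029) with overlapping groups, and its call was lost without any 1 of the 9 arrays (adjusted p 0.055 to 0.22). The receptors themselves did not pass, with a difference of -0.06 for Rara, -0.12 for Rarb and -0.31 for Rarg. Nor did Cyp26a1, an enzyme that degrades tRA and a common target of RARs in other cells, with a difference of -0.11 (95% interval -0.26 to 0.04). Dhrs9, another enzyme of the family, had a difference of 0.67 (SE 0.13, adjusted p = 0.10). These 33 had a median of -0.03.

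Of 27 measured genes that tRA induces in other tissues, 3 fell, which were Dhrs3, Stra6 and Tgm2, and the median was -0.04. Tgm2, tissue transglutaminase, had 8.77, 8.29 and 9.05 with AGN193109 and 9.84, 9.23 and 9.97 with vehicle, without overlap, and a difference of -0.98 (SE 0.07, adjusted p = 0.0010). Foxa1, a pioneer transcription factor of endoderm and epithelia, had 9.08, 8.96 and 9.14 with AGN193109, against 9.23, 9.19 and 9.48 with vehicle. Its difference of -0.24 (SE 0.07, 95% interval -0.39 to -0.08) was not called (adjusted p = 0.38), although the groups did not overlap. In quantitative PCR before the arrays, the paper found Foxa1 suppressed by AGN193109, and it used this gene as its cut-off.

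Cell adhesion genes supplied 2 of the deepest falls, and no other of the 39 measured integrin, laminin and focal adhesion genes passed. Itga2, the integrin chain that binds collagen with the beta1 chain, had 9.29, 9.49 and 8.79 with AGN193109 and 10.88, 11.14 and 10.61 with vehicle (difference -1.69, SE 0.10, adjusted p = 4.3e-04). Tns1, tensin 1, which links integrins to actin, is read by 6 clusters, 5 of which were called. Its brightest cluster had 10.21, 8.98 and 9.79 with AGN193109, against 11.76, 10.61 and 11.57 with vehicle. The replicates spanned more than a log2 unit within each group, while the pairs differed by -1.56, -1.62 and -1.77 (mean difference -1.65, SE 0.07, adjusted p = 1.3e-04). Without the block this cluster was not called (adjusted p = 0.67). The largest fall of a Tns1 cluster was -1.69, and the cluster that did not pass had a difference of 0.09. Of 40 claudin and cell junction genes 2 fell, the desmosomal cadherin Dsg2 (-0.76, SE 0.08) and the catenin Ctnnd2 (-0.54, SE 0.08). Their calls were lost in 4 and 8 of the 9 fits that left out 1 array (adjusted p up to 0.097 for Dsg2 and 0.26 for Ctnnd2). The medians of the adhesion and junction lists were -0.02 and 0.02.

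Sprr1a, a small proline-rich protein that is cross-linked into the cornified envelope of squamous epithelia, was among the deepest falls. It had 8.44, 9.44 and 9.16 with AGN193109, against 11.09, 11.69 and 12.58 with vehicle, with no overlap and a difference of -2.78 (SE 0.21, adjusted p = 0.0011). The call was lost without the block (adjusted p = 0.062) and without replicate number 1 (0.11). Sprr1a was the 1 fall among 40 squamous differentiation genes, of which 2 rose and 25 lay above 0, with a median of 0.03. Of all 23410 clusters, 13271 lay above 0. Anxa8, an annexin, had 8.59, 8.41 and 9.08 with AGN193109 and 7.92, 7.72 and 8.05 with vehicle (difference 0.79, SE 0.12, adjusted p = 0.039), and the desmosomal plaque protein Pkp1 was also higher (0.49, SE 0.07, adjusted p = 0.041). Gsdma (0.69, adjusted p = 0.062) and Casp14 (0.64, adjusted p = 0.085) did not pass. The call of Anxa8 was lost in 8 and that of Pkp1 in 9 of the 9 fits that left out 1 array (adjusted p up to 0.27 for Anxa8 and 0.31 for Pkp1).

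**Figure D2:**
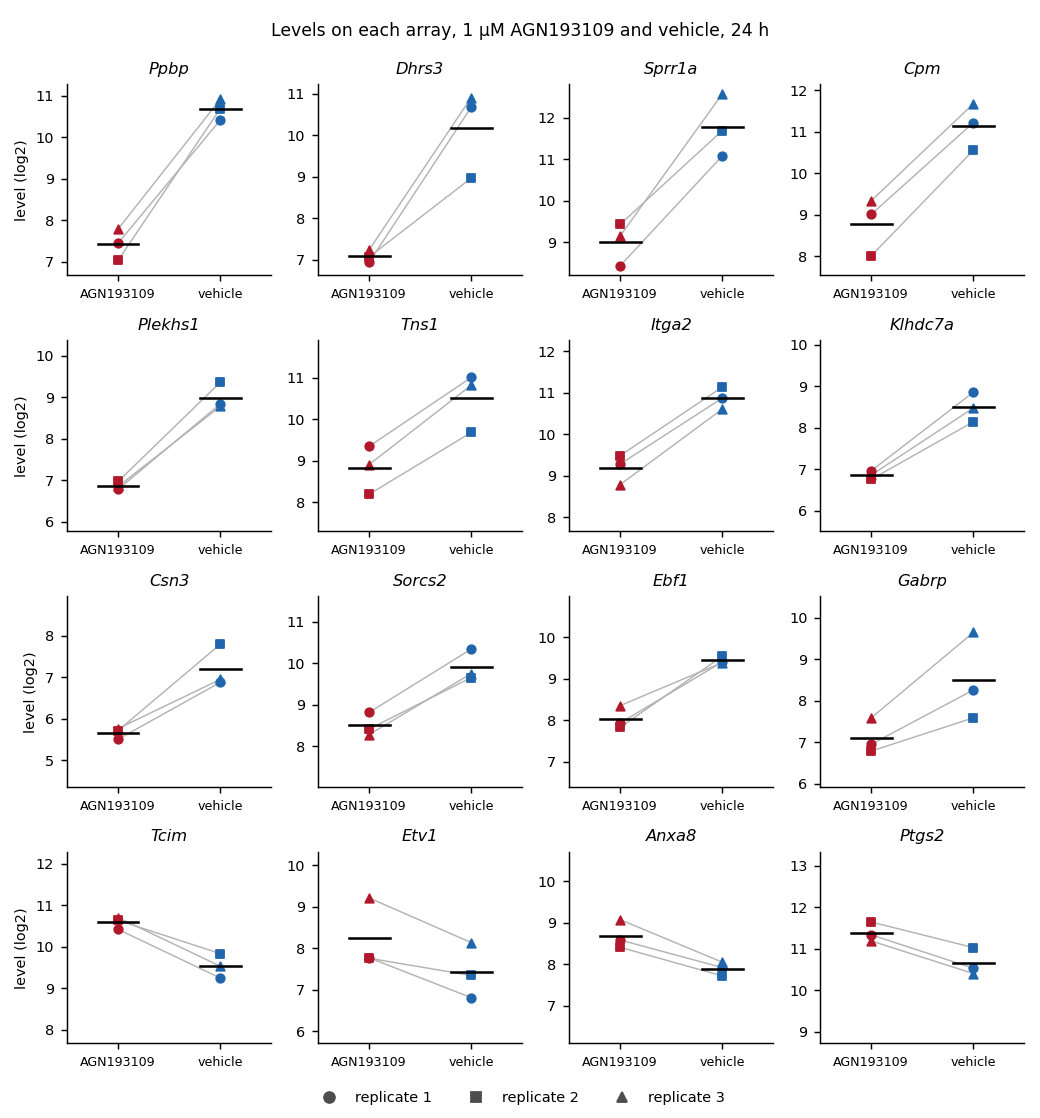
Log2 levels of the 12 genes with the deepest called falls and the 4 with the largest called rises, on the 3 AGN193109 arrays (left in each panel) and the 3 vehicle arrays (right). Grey lines join arrays with the same replicate number, bars are means, and every panel spans 4.6 log2 units. Gabrp and Etv1 are the 2 genes shown whose groups overlap.

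The remaining deep falls belonged to diverse functions. Cpm, carboxypeptidase M, a membrane enzyme that removes C-terminal arginine or lysine from peptides, had 9.01, 8.01 and 9.34 with AGN193109 and 11.22, 10.56 and 11.68 with vehicle. Its pairs differed by -2.21, -2.54 and -2.34, giving -2.36 (SE 0.09) and the smallest adjusted p of the comparison, 1.2e-04. Without the block Cpm was not called (adjusted p = 0.12). Plekhs1, named for its pleckstrin homology domain, had 6.78, 6.97 and 6.85 with AGN193109 and 8.83, 9.36 and 8.78 with vehicle. The groups did not overlap, and the difference was -2.12 (SE 0.10, adjusted p = 1.3e-04). Plekhs1 and Ppbp were called under each of the 20 alternatives tried.

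Klhdc7a, a protein with Kelch repeats, fell (-1.63, SE 0.11), and so did Csn3, kappa-casein (-1.54, SE 0.16). Csn3 was dim, with a mean of 7.20 with vehicle and 5.66 with AGN193109, the lowest AGN193109 mean among the called falls. The paper reports that its quantitative PCR did not amplify Csn3. For every other gene of its most lowered ones, Dhrs3, Muc20 and Ebf1 among them, that PCR found significantly less transcript with AGN193109 than with vehicle. The call of Csn3 was lost without the block (adjusted p = 0.062), with all clusters tested (0.080), with the 6 compared arrays alone (0.098) and without any 1 of the replicate numbers (up to 0.18). Sorcs2, a sorting receptor of the Vps10p family (-1.41, SE 0.08), and Mab21l4 (-1.21, SE 0.09) fell as well. Slc37a1, a sugar phosphate transporter, had 8.61, 8.02 and 8.34 with AGN193109 and 9.71, 9.08 and 9.18 with vehicle (SE of the difference 0.08, adjusted p = 0.0012). The groups of Klhdc7a, Csn3, Sorcs2, Mab21l4 and Slc37a1 did not overlap. Gabrp, the pi subunit of the GABA-A receptor, had 6.95, 6.78 and 7.59 with AGN193109 and 8.26, 7.59 and 9.64 with vehicle. AGN193109 replicate 3 was level with vehicle replicate 2, the SE was 0.21 for a difference of -1.39 (adjusted p = 0.038), and the call was lost in 8 of the 9 fits that left out an array (adjusted p up to 0.24).

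A list of uroplakins, mucins and the Ly6 family also held Clca3b, which is none of these. Of its 23 measured genes 5 fell and none rose, against 0.372% and 0.0854% of all clusters tested. Muc20, a transmembrane mucin, had 7.91, 7.50 and 8.71 with AGN193109 and 9.25, 8.45 and 9.62 with vehicle, so that the groups overlapped although each pair fell (difference -1.06, SE 0.10, adjusted p = 0.0032). Clca3b, of the chloride channel accessory family, had 7.42, 7.29 and 7.70 with AGN193109 and 8.37, 8.42 and 8.77 with vehicle, without overlap (-1.05, SE 0.09, adjusted p = 0.0026). Upk3b, a uroplakin, had 8.55, 8.39 and 9.21 with AGN193109 and 9.67, 9.42 and 10.16 with vehicle, also without overlap (-1.04, SE 0.07, adjusted p = 0.0010). Psca (-0.87, SE 0.06) and Ly6g (-0.81, SE 0.11), both glycolipid-anchored proteins of the Ly6 family, fell too, and Ly6g lost its call in 6 of the 9 fits without 1 array (adjusted p up to 0.22). The uroplakins Upk1a (-0.38), Upk1b (-0.10), Upk2 (0.10) and Upk3a (0.05) did not pass, and the median of the 23 was -0.05.

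In natriuretic peptide, prostaglandin and purine signaling, 2 of 26 measured genes fell and 2 rose. Npr3, the receptor that clears natriuretic peptides, had 9.71, 9.51 and 9.43 with AGN193109 and 10.87, 10.56 and 10.65 with vehicle, without overlap (difference -1.15, SE 0.07, adjusted p = 4.3e-04). The signaling receptors of these peptides did not pass (Npr1 -0.04, Npr2 -0.14). P2ry1, a receptor for ADP, fell by 0.87 (SE 0.07, adjusted p = 0.0016). Ptgs2, cyclooxygenase 2, the inducible enzyme of prostaglandin synthesis, had 11.34, 11.64 and 11.19 with AGN193109 and 10.53, 11.03 and 10.40 with vehicle, without overlap (difference 0.74, SE 0.08, adjusted p = 0.011). Ptger4, the prostaglandin E2 receptor EP4, rose by 0.52 (SE 0.07, adjusted p = 0.031). Both rises lost their call without single arrays, Ptgs2 in 5 of the 9 fits (adjusted p up to 0.099) and Ptger4 in 8 (up to 0.23). Their 26 genes had a median of 0.01.

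Of 24 water and sodium transport genes of CD principal cells, 1 rose. This was the sodium pump regulator Fxyd5 (0.50, SE 0.06, adjusted p = 0.021), with overlapping groups and a call lost in 7 of the 9 fits without 1 array (adjusted p up to 0.18). Aqp2, the vasopressin-regulated water channel, differed by 0.16 (95% interval -0.12 to 0.44). The median of the 24 was 0.09. None of 18 acid-base genes of intercalated cells passed, among them Car2, carbonic anhydrase 2, at -0.90 (SE 0.18, adjusted p = 0.12) and the proton pump subunit Atp6v0a4 at 0.43 (adjusted p = 0.080). Their median was 0.00.

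Among 42 genes of ureteric bud and kidney development, 2 fell. Ebf1, a transcription factor known from B cell development, had 7.93, 7.83 and 8.35 with AGN193109 and 9.40, 9.54 and 9.39 with vehicle, so that every AGN193109 array was more than a log2 unit below every vehicle array (difference -1.41, SE 0.13, adjusted p = 0.0028). The call of Ebf1 was lost with the 6 compared arrays alone (adjusted p = 0.064) and without replicate number 1 (0.20) or 2 (0.064). Bmp7, a ligand that keeps nephron progenitors alive, had 8.27, 7.94 and 8.42 with AGN193109 and 9.06, 8.42 and 9.35 with vehicle, where AGN193109 replicate 3 equalled vehicle replicate 2 to 2 decimals (difference -0.73, SE 0.09, adjusted p = 0.018). The Bmp7 call was lost in 5 of the 9 fits that left out 1 array (adjusted p up to 0.15). The paper's quantitative PCR before the arrays found Bmp7 suppressed by AGN193109. Pax2 (-0.05) and Wnt7b (-0.09) did not pass, nor did either of 2 clusters of Wnt4 (-0.49, adjusted p = 0.058, and -0.23). All 42 had a median of -0.01.

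TGF-beta and BMP signaling held 2 falls of 43 measured genes. Beside Bmp7, Smad3, the signal transducer of TGF-beta, had 10.80, 10.67 and 10.66 with AGN193109 and 11.57, 11.47 and 11.50 with vehicle. The SD was 0.08 with AGN193109 and 0.05 with vehicle, and the groups did not overlap (difference -0.80, SE 0.06, adjusted p = 0.0015). Id2, a BMP target, was at -0.67 and did not pass (adjusted p = 0.058). The median of the list was 0.04, and 28 of the 43 lay above 0, as did 13271 of all 23410 clusters.

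Feedback and immediate early genes of the ERK pathway, each read from its brightest cluster, held 3 rises and 3 falls among 40 measured. Of the 40, 32 lay above 0, as did 13271 of all 23410 clusters, and the median was 0.10. Nr4a1, an orphan nuclear receptor, had 10.52, 10.76 and 11.20 with AGN193109 and 9.82, 10.30 and 10.32 with vehicle (difference 0.68, SE 0.09, adjusted p = 0.0265). Spry4, an inhibitor of receptor tyrosine kinase signaling, had 9.58, 9.96 and 9.95 with AGN193109 and 8.92, 9.52 and 8.95 with vehicle (0.70, SE 0.10, adjusted p = 0.037). Dusp6, a phosphatase of ERK, rose by 0.55 (SE 0.08, adjusted p = 0.038). Each of the 3 had no overlap, and each lost its call in 8 of the 9 fits without 1 array (adjusted p up to 0.20 for Nr4a1, 0.23 for Spry4 and 0.27 for Dusp6). Etv1, an ETS factor downstream of ERK, had 7.77, 7.76 and 9.21 with AGN193109 and 6.81, 7.34 and 8.13 with vehicle, with replicate 3 the highest in both groups (0.82, SE 0.13, adjusted p = 0.048). That call was lost in 8 of the 9 fits without 1 array (adjusted p up to 0.31). A brighter cluster of Etv1 was at 0.63 and did not pass (adjusted p = 0.055). The 3 falls were the salt-inducible kinase Sik1 (-0.76, SE 0.09), the mRNA decay factor Zfp36l1 (-0.66, SE 0.07) and the MAP kinase phosphatase Dusp1 (-0.54, SE 0.07). Their calls were lost in 5, 5 and 7 of the 9 fits (adjusted p up to 0.14 for Sik1, 0.094 for Zfp36l1 and 0.18 for Dusp1). Of 18 EGF receptor family and ligand genes none passed, the smallest adjusted p was that of the ligand Nrg1 (-0.32, adjusted p = 0.11), and the median was 0.07.

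The other named rises had no list in common. Tcim, a regulator of transcription and immune responses, had 10.42, 10.64 and 10.71 with AGN193109 and 9.25, 9.84 and 9.54 with vehicle, without overlap. It was the only called rise of 2-fold or more (1.05, SE 0.09, adjusted p = 0.0021). Peg10, a gene derived from a retrotransposon, had 10.50, 10.35 and 10.34 with AGN193109 and 9.81, 9.83 and 9.72 with vehicle (0.61, SE 0.07, adjusted p = 0.0088), and was the 1 rise also called without the block. Cpeb2, which binds the polyadenylation elements of cytoplasmic mRNAs, rose by 0.65 (SE 0.08, adjusted p = 0.019). Pvr, an adhesion molecule of the nectin family, rose by 0.60 (SE 0.07, adjusted p = 0.014) with overlapping groups. The calls of Peg10, Cpeb2 and Pvr were lost in 3, 5 and 6 of the 9 fits without 1 array (adjusted p up to 0.096 for Peg10, 0.16 for Cpeb2 and 0.14 for Pvr).

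Of 33 NRF2 and glutathione genes 3 fell, and the median was -0.04. Gsr, glutathione reductase, had 11.37, 11.14 and 11.48 with AGN193109 and 12.30, 12.14 and 12.33 with vehicle, without overlap (difference -0.93, SE 0.08, adjusted p = 0.0028). The glutathione transferases Gstm1 (-0.80, SE 0.08) and Gstm2 (-0.70, SE 0.07) are similar in sequence, so that their probes may share signal. Both calls were lost without vehicle replicate 3 (adjusted p up to 0.066 for Gstm1 and 0.052 for Gstm2), and that of Gstm1 also without AGN193109 replicate 1. The NRF2 targets Nqo1 (0.17) and Gclm (0.17) did not pass. Of 20 lysosomal glycan-degrading enzymes 1 fell, Galns, which removes sulfate from keratan and chondroitin sulfate. It had 9.20, 8.98 and 9.29 with AGN193109 and 10.57, 10.06 and 10.38 with vehicle, without overlap (-1.18, SE 0.09, adjusted p = 0.0011), while Gusb of the same list was at -0.17 (adjusted p = 0.77) and the median was -0.01. Of 19 genes of tubular injury and repair, Lcn2 and the transcription factor Sox4 (-0.47, SE 0.07) fell and the metalloproteinase inhibitor Timp3 (0.47, SE 0.07) rose, whereas the injury marker Havcr1 was at 0.07. The call of Sox4 was lost in 9 and that of Timp3 in 8 of the 9 fits without 1 array (adjusted p up to 0.26 for Sox4 and 0.30 for Timp3). These 19 genes had a median of 0.01.

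No listed member passed in the lists of aldehyde dehydrogenases and aldo-keto reductases (29 measured), interferon response (29), cholesterol and fatty acid synthesis (29), unfolded protein and integrated stress response (31), hypoxia and glycolysis (31), cell cycle (44) and housekeeping genes (14). In this order, the members with the smallest adjusted p were Akr1c19 (0.79, adjusted p = 0.078), Oasl1 (-0.51, adjusted p = 0.064), Mvd (-0.24, adjusted p = 0.42), Vldlr (-0.23, adjusted p = 0.44), Ndrg1 (0.54, adjusted p = 0.062), Cdkn2b (0.30, adjusted p = 0.17) and, of the housekeeping genes, Gusb (-0.17, adjusted p = 0.77). The medians of these lists lay between -0.08 (interferon response) and 0.05 (hypoxia and glycolysis), against 0.02 over all clusters.

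None of the markers of cell identity passed the test. The 6 epithelial markers had levels of 11.4 to 13.5 with AGN193109 and 11.2 to 13.6 with vehicle, and the smallest adjusted p was that of Krt7 (-0.32, adjusted p = 0.13). Of 15 CD and ureteric bud markers none passed, and their levels ran from 4.98 to 12.5 with AGN193109 and from 5.05 to 12.5 with vehicle. Pax8, a renal lineage factor, averaged 12.5 in both groups. The sodium channel subunit Scnn1b averaged 5.82 with AGN193109 and 5.90 with vehicle, and Scnn1g 5.56 with AGN193109 and 5.55 with vehicle. The table holds no detection calls, so that a low level cannot be called absence. The 22 measured markers of other kidney and blood cells ran from 4.51 to 8.64 with AGN193109 and from 4.57 to 9.07 with vehicle, none passed, and the platelet marker Pf4, a chemokine of the same family as Ppbp, averaged 4.51 with AGN193109 and 4.57 with vehicle. The medians of the 3 marker lists were -0.04, 0.06 and 0.02.

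**Figure D3:**
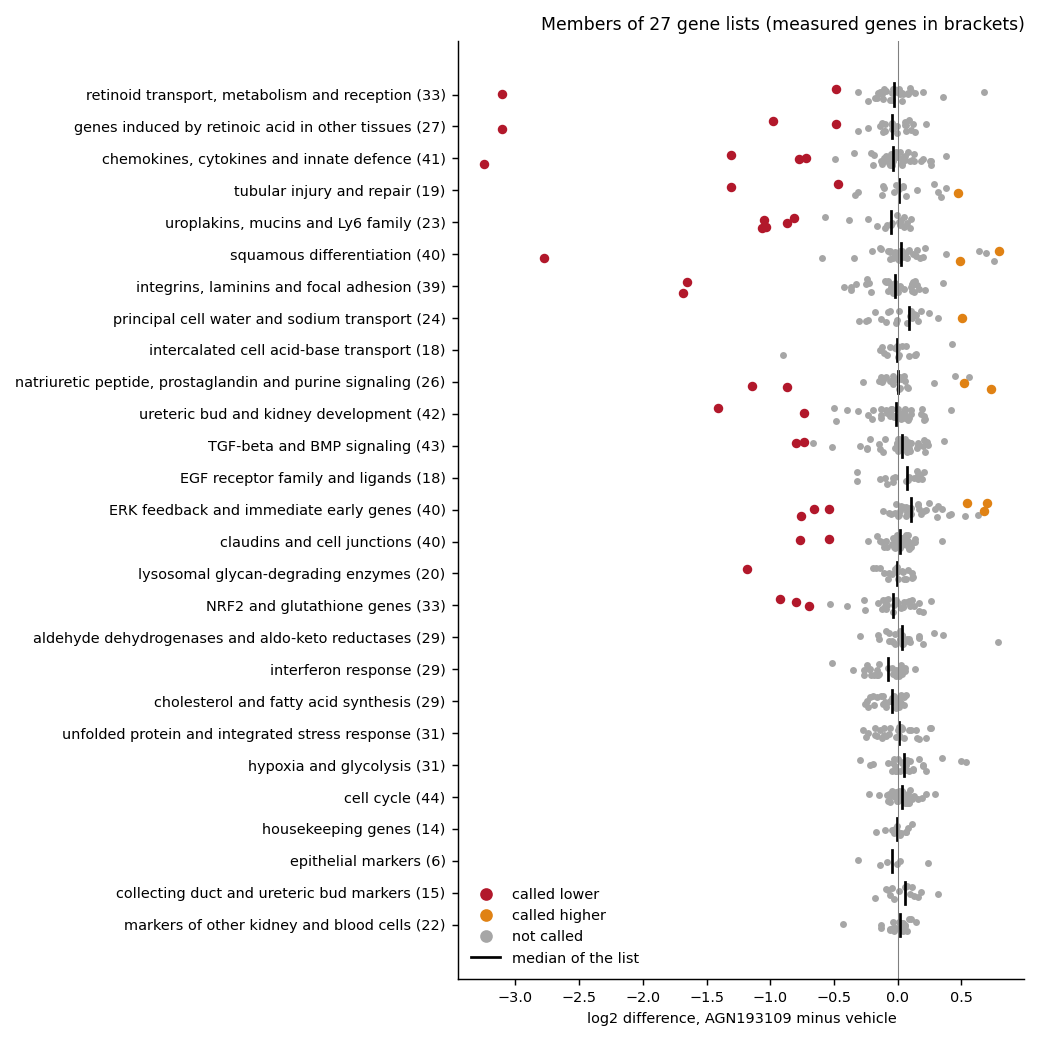
Log2 differences (AGN193109 minus vehicle, x axis) of the measured members of 27 gene lists (y axis), 1 point per gene and black bars for list medians. List medians run from -0.08 to 0.10, while single members such as Ppbp, Dhrs3 and Sprr1a lie below -2.5.

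Some interferon-induced GTPases that were in none of the lists were called, and they are named after their values were seen. Both clusters of Tgtp2;Tgtp1, which the array annotates with 2 near-identical genes, fell (-0.73, adjusted p = 0.0082, and -0.72, adjusted p = 0.031). The guanylate-binding protein Gbp9 fell as well (-0.52, SE 0.08, adjusted p = 0.035). Their groups did not overlap, and the calls were lost in 4, 6 and 8 of the 9 fits without 1 array (adjusted p up to 0.26).

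A few further called genes were also chosen for mention after their values were seen. The Notch ligand Jag1 (-0.53, SE 0.07) and the Notch regulator Dtx4 (-0.81, SE 0.10) fell. So did the ligand Wnt9a (-0.85, SE 0.07), the growth factor chain Pdgfb (-0.62, SE 0.08) and Ltbp3, which binds latent TGF-beta (-0.68, SE 0.10). Of ion transport genes, the sodium bicarbonate cotransporter Slc4a4 (-0.74, SE 0.09) and the potassium channel Kcnk5 (-0.60, SE 0.08) fell, Kcnk5 with overlapping groups. Foxj1, the master factor of motile cilia, fell by 0.75 (SE 0.07). Tinag, the nephritis antigen, fell by 0.79 (SE 0.12) with overlapping groups. Among the rises, the caveolar protein Cav1 (0.38, SE 0.06) had the smallest called difference, and the endothelial lipase Lipg was at 0.53 (SE 0.08). Dtx4 and Pdgfb were among the 16 clusters called without the block too. Of these genes Wnt9a kept its call without any single array, while Foxj1 lost it in 2 and Dtx4 in 4 of the 9 fits. Slc4a4 and Tinag lost it in 6, Pdgfb, Ltbp3 and Kcnk5 in 7, Jag1 in 8, and Cav1 and Lipg in 9.

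When 0.2 µM tRA was present with AGN193109, 19 clusters were called against AGN193109 alone (0.0812% of those tested), 18 of them higher (0.0769%) and 1 lower (0.00427%). This comparison shares the AGN193109 arrays with the one against vehicle, so that values are given side by side. Ppbp stood at 9.70, 10.25 and 10.20 with AGN193109+tRA, 2.63 above AGN193109 alone (SE 0.16, adjusted p = 0.0015) and at -0.62 from vehicle. Cpm stood at 10.61, 9.81 and 10.76, which was 1.60 above AGN193109 alone (SE 0.09, adjusted p = 0.0015) and at -0.76 from vehicle. Npr3 was at 10.74, 10.57 and 10.62, 1.10 above AGN193109 alone (SE 0.07) and at -0.05 from vehicle. Neither Ppbp, Cpm nor Npr3 was called against vehicle, which does not show a full return to its level. The paper's quantitative PCR found Ppbp and Cpm, but not Npr3, still significantly below vehicle with AGN193109+tRA. Clca3b, at 8.94, 8.87 and 8.93, was 1.45 above AGN193109 alone (SE 0.09) and at 0.40 from vehicle (adjusted p = 0.48). Sprr1a was 2.31 above AGN193109 alone (SE 0.21, adjusted p = 0.0075), and Plekhs1 1.45 (SE 0.10), Itga2 1.47 (SE 0.10) and Lcn2 0.96 (SE 0.08).

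Of the 87 falls, 18 were called higher with tRA than with AGN193109 alone, a count that describes only, since the AGN193109 arrays are shared. Dhrs3, Muc20 and Ebf1 were among the falls not called, which does not show that tRA left them unchanged. The paper's quantitative PCR found Dhrs3 and Ebf1 significantly higher with tRA than with AGN193109 alone, but not Muc20. Dhrs3 stood at 9.07, 7.41 and 8.33 with AGN193109+tRA, 1.19 above AGN193109 alone (SE 0.36, adjusted p = 0.67) and at -1.92 from vehicle (adjusted p = 0.29). Muc20, at 8.13, 7.74 and 8.79, differed from AGN193109 alone by 0.18 (SE 0.10, adjusted p = 0.999), and Ebf1 by 0.89 (SE 0.13, adjusted p = 0.075). The 1 cluster that was lower with AGN193109+tRA than with AGN193109 alone was Akr1c19, an aldo-keto reductase, with a difference of -1.23 (SE 0.14, adjusted p = 0.027). Against vehicle, AGN193109+tRA had 1 called cluster, the brightest one of Tns1, at -0.85 (SE 0.07, adjusted p = 0.049). Of the rises, Ptgs2 was at 11.30, 11.43 and 10.91 with AGN193109+tRA, a difference of -0.17 from AGN193109 alone that was not called, and Anxa8 at 7.53, 7.83 and 7.93, a difference of -0.93 (SE 0.12, adjusted p = 0.055).

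**Figure D4:**
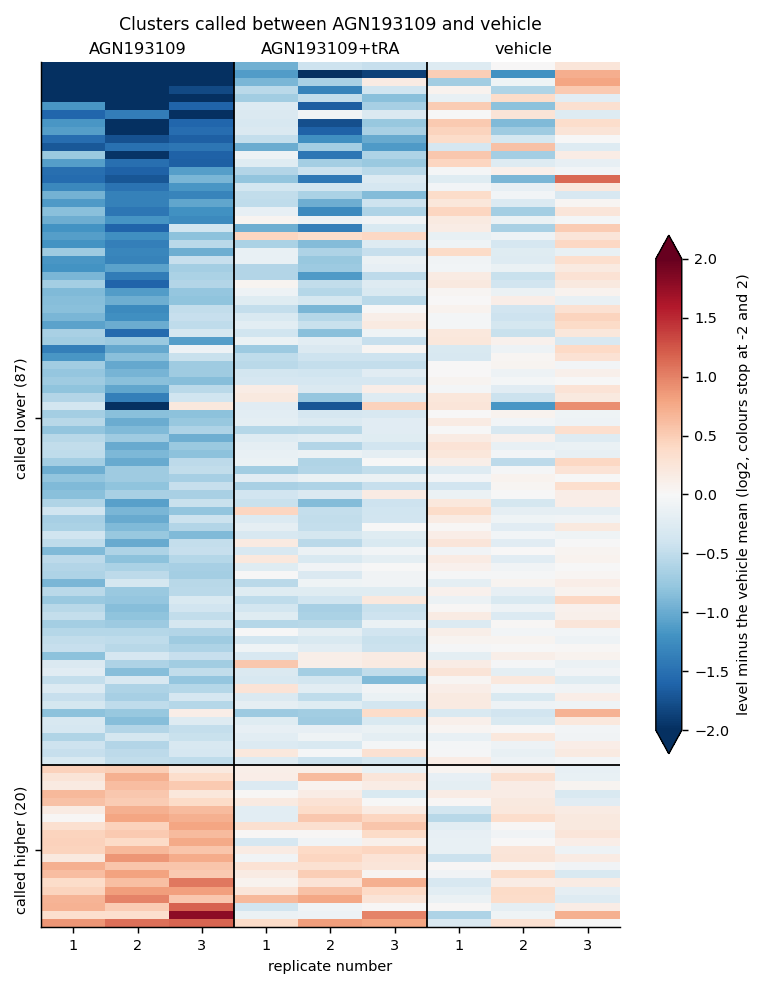
Levels of the 107 called clusters (rows, ordered by log2 difference) on 9 arrays (columns), as log2 level minus the mean of the vehicle arrays. The clusters were selected on the AGN193109 and vehicle columns, Ppbp is at -3.25 with AGN193109 and -0.62 with AGN193109+tRA, and colours stop at -2 and 2.

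The inhibitor of tRA synthesis, DEAB, was tested on other arrays with their own vehicle, which allows the effects to be compared. All 87 clusters lowered by AGN193109 were below 0 with DEAB (50.1% of all clusters were), and all 20 raised ones were above 0 (49.9% of all). Their median log2 difference with DEAB was -0.44 for the lowered and 0.31 for the raised. The clusters were selected on the AGN193109 values, which favours larger sizes there, so that the sizes are not ranked between the compounds. DEAB had 71 calls of its own (0.303%). Of the 87, 45 were also called lower with DEAB, which are 45 of the 66 that DEAB lowered (0.282% of those tested). None of the 20 was among the 5 called higher with DEAB (0.0214%).

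Ppbp differed by -3.25 with AGN193109 and -2.62 with DEAB. Dhrs3 differed by -3.10 with AGN193109 and -2.33 with DEAB (adjusted p = 0.058 with DEAB), and Sprr1a by -2.78 with AGN193109 and -2.21 with DEAB. When the difference between the effects was itself tested over the 18 arrays, 1 cluster was called of 23410 (0.00427%), while 1305 had an unadjusted p under 0.05. This was Cpm, at -2.36 with AGN193109 and -1.20 with DEAB, so that the effects differed by -1.16 (SE 0.11, adjusted p = 0.0030). Plekhs1 (-2.12 with AGN193109 and -1.23 with DEAB, adjusted p = 0.097 for the difference) and the brightest Tns1 cluster (-1.65 with AGN193109 and -1.04 with DEAB, adjusted p = 0.053) did not pass. Muc20 was at -1.06 with AGN193109 and -1.12 with DEAB. The compounds act at different steps and their doses were not matched.

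**Figure D5:**
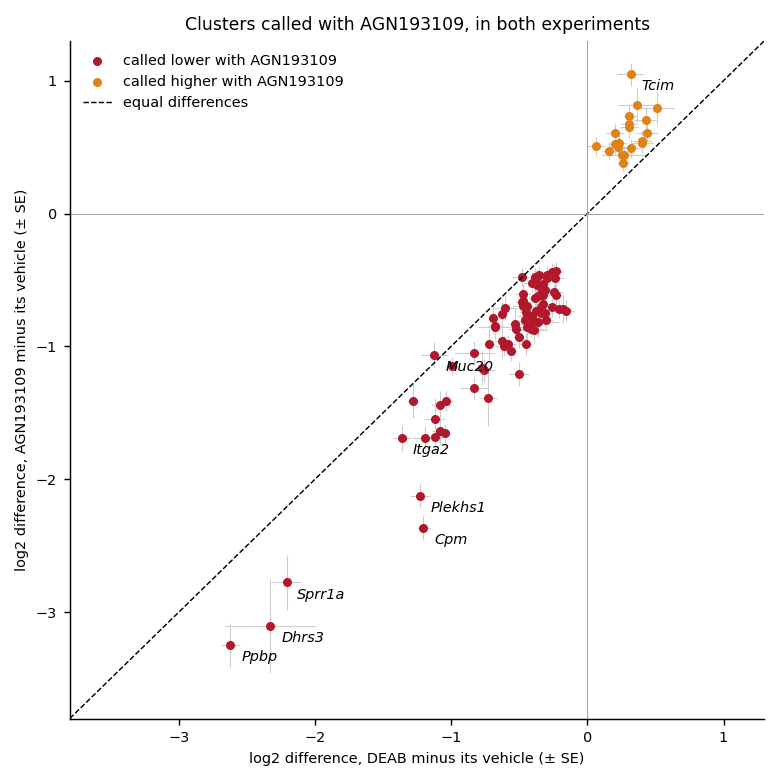
Log2 differences of the 107 clusters called with AGN193109, with DEAB on the x axis and AGN193109 on the y axis, each against its own vehicle and with standard errors as bars. All points lie in the quadrants of equal sign, and Cpm, at -2.36 with AGN193109 and -1.20 with DEAB, lies away from the dashed line of equal differences.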

How the data were processed

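The authors deposited log2 values, which their processing notes describe as robust multi-array averages (RMA) made in Affymetrix Expression Console from Mouse Gene 1.0 ST arrays. Its version and the genome build are not given in the sources used here. In total, 35556 transcript clusters were listed, of which 23410 had a gene symbol (21789 had 1 symbol, 1621 several) and were tested. By gene ID, 21698 of the 21789 were found in the RefSeq gene table, all with the same symbol.

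Arrays were grouped by titles and short names. Some compound labels are spelled AGN193110 or AGN193099 and were read as AGN193109, and the short-name pattern decided to which experiment a vehicle array belonged. Group means with replicate number as a block were fitted over 9 arrays with limma 3.58.1 in R 4.3.3, with Benjamini-Hochberg adjustment over all tested clusters, and the effect of AGN193109 minus that of DEAB over 18 arrays. The labels give biological replicate numbers, and deviations of same-numbered arrays correlated at 0.198 to 0.645 in all 9 pairs, against -0.575 to 0.205 for the 18 with different numbers. No arrays were identical (correlations 0.985 to 0.996).

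The text names the 20 deepest falls and 10 largest rises among called genes with 1 symbol, Ppbp, Plekhs1, Ebf1, Lcn2, Foxa1 and Bmp7, and of each of 27 gene lists (779 genes, 728 measured) up to 4 called members with the smallest adjusted p, or 1 member where none was called. Members and lists were chosen with earlier results of these data known. The alternatives tried were no block, a repeated quantile normalization, centring each array on its median, leaving out dim clusters (under the 30th percentile), all clusters tested, the 6 compared or all 18 arrays in the fit, the trend and robust options of eBayes, and single arrays or replicate numbers left out. The fit was tested on simulated data. Figures were drawn with matplotlib 3.10.9.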

Additional observations from a re-analysis of the deposited data

Results flagged for a closer look

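The effect of AGN193109 on Cpm, carboxypeptidase M, differed from that of DEAB. The difference between the effects was -1.16 (SE 0.11, adjusted p = 0.0030 in limma over 18 arrays), from -2.36 with AGN193109 and -1.20 with DEAB. Cpm was lower in all 3 AGN193109 pairs. Exactly 1 cluster was called in this test whichever array of the contrast was left out, but which cluster it was in those fits was not recorded.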

How the results depend on the processing

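All 107 called clusters kept their sign under every alternative that tested them (104 of them when dim clusters were left out), but the number of calls depended on the fit. Without the replicate block, 15 clusters were lower and 1 higher, 5 were called for AGN193109+tRA against AGN193109 (19 with the block) and 0 where the effect of AGN193109 was set against that of DEAB (1 with the block). With all clusters tested, with or without a symbol, 32 were lower, 1 was higher and 6 were called with tRA. With the 6 compared arrays alone, 30 were lower and 0 higher, and with all 18 arrays in 1 fit, 232 were lower, 147 higher and 140 called with tRA. Leaving out dim clusters gave 33 higher, 29 with tRA and 2 for AGN193109 against DEAB. The trend and robust options gave 36 higher, 43 with tRA and 4 against DEAB. Quantile normalization and subtraction of medians each gave 2 against DEAB.

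With arrays left out, 5 to 72 clusters were lower, 0 to 11 higher and 0 to 14 called with tRA. The lower count was 37, 41 and 64 without AGN193109 replicate 1, 2 or 3, 34, 49 and 33 without vehicle replicate 1, 2 or 3, 72, 54 and 69 without AGN193109+tRA replicate 1, 2 or 3, and 5, 16 and 20 without all arrays numbered 1, 2 or 3. Of the 107 calls, 101 were kept under quantile normalization, 104 under subtraction of medians, 105 with the trend and robust options and 106 with all 18 arrays. The cause of these differences was not tested. The table has no detection calls, so signal over background is unknown and low levels limit what dim clusters can show.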

Other observations

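Some called genes were neighbours in the RefSeq gene order. Of 99 called genes placed on it, 5 pairs had at most 2 genes between them, and both members fell in all 5. Psca (-0.87) lay next to Them6 (-0.61), Gstm2 (-0.70) next to Gstm1 (-0.80), and Upk3b (-1.04) next to Upk3bl (-0.98). Klhdc7a (-1.63) and Arhgef10l (-0.48) had 1 gene between them, and Tgm2 (-0.98) and Lbp (-0.77) had 2. Gstm1 and Gstm2, and Upk3b and Upk3bl, are related in sequence, so that their probes may share signal. Of the genes not described above, Them6 lost its call in 8 and Arhgef10l in 9 of the 9 fits without 1 array, and Upk3bl in none. Of the 100 called genes with 1 symbol 80 fell, so that a pair of falls is the likeliest kind. How often other genes lie as close was not counted. The pairs were looked for after the calls were known, and no test was run on their number.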
